A study of Saccharomyces cerevisiae with 10 samples.

Results

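The genes described here are 10 members of the phosphate starvation response of budding yeast, chosen by name: *PHO84*, *PHO89*, *SPL2*, *PHO5*, *PHO11*, *PHO12*, *PHO8*, *VTC3*, *PHO81* and *PHO4*. They are 10 of the 7053 features that the expression tables list, and all 10 were found in every table. RNA was sequenced from *S. cerevisiae* cultures of the BY4742 background in which *JHD2* was intact, deleted or overexpressed; its product removes methyl groups from H3K4. Wild type (WT) and *jhd2Δ* were grown in a defined medium with ammonium and glucose (YAD), with glutamate and glucose (YGD), or with ammonium and raffinose (YAR), with 3 cultures of each strain in YAD, 3 in YGD and 2 in YAR. WT cells with a multicopy *LEU2* plasmid that drives *JHD2* from the constitutive *ADH1* promoter (OE) were compared with WT cells with the empty vector (EV), with 3 cultures per group in YAR. In YAD this pair has group values only.

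The study's methods name 1 strain or plasmid per genotype, so clonal differences between strains are not separated from the genotype. By label and by the markers below, WT in YAR has another mating type than WT in YAD and YGD. WT therefore cannot be taken as the same clone across media. In the labels, WT is Mat alpha and *jhd2Δ* is Mat a in both YAD and YGD. In YAR both strains carry the label Mat a. The plasmid groups, EV and OE, carry the label Mat alpha. Genotype and mating type therefore cannot be told apart in YAD and YGD, although the strain list of the study gives both strains the same mating type. Nothing in the labels says how separate the replicate cultures were, so p-values measure the spread between these cultures only.

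Yeast cells sense inorganic phosphate through the cyclin-dependent kinase Pho85 and its cyclin Pho80. When phosphate is plentiful, the kinase phosphorylates the transcription factor Pho4 and keeps it out of the nucleus, and when phosphate is scarce the inhibitor Pho81 blocks the kinase and Pho4 activates its targets together with Pho2. These targets encode the high-affinity transporters Pho84, which carries phosphate with protons, and Pho89, which carries it with sodium. They also include the secreted acid phosphatases Pho5, Pho11 and Pho12, the vacuolar alkaline phosphatase Pho8, the small regulator Spl2 that curbs low-affinity uptake, and Vtc3, a subunit of the vacuolar complex that makes polyphosphate. *PHO5* is a classical model of gene activation through chromatin.

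In R64 coordinates, which the files share, the transporter genes are *PHO84* (YML123C) at 24037 to 25800 of chromosome XIII and *PHO89* (YBR296C) at 796798 to 798522 of chromosome II, and *SPL2* (YHR136C) at 374654 to 375100 of chromosome VIII encodes the regulator of low-affinity uptake. The phosphatase genes are *PHO5* (YBR093C) at 429548 to 430951 of chromosome II, *PHO11* (YAR071W) at 225460 to 226863 of chromosome I, *PHO12* (YHR215W) at 552099 to 553502 of chromosome VIII and *PHO8* (YDR481C) at 1418550 to 1420250 of chromosome IV. The others are *VTC3* (YPL019C) at 514511 to 517018 of chromosome XVI, *PHO81* (YGR233C) at 954674 to 958210 of chromosome VII and *PHO4* (YFR034C) at 225020 to 225958 of chromosome VI. No member overlaps another annotated feature.

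The members share a feature of sequence, which is not independent of the choice, since they were named as genes of the response that Pho4 drives. Pho4 binds the letters CACGTG and, more weakly, CACGTT, and both were searched on both strands in the 500 bases before the start codon of each gene in the RefSeq genome (R64). These words cannot overlap each other. Of 10 members, 9 held at least one match and 8 held 2 or more, whereas 21.0% of 6000 yeast promoters held at least one and 2.72% held 2 or more. Of the 30 other phosphate genes described later, 19 held at least one and 7 held 2 or more. *PHO4* itself held none and *PHO8* held 1. A match describes letters only and does not show binding. The stretches with matches are printed for the transporters, *SPL2*, the acid phosphatases and *VTC3*, since these are the members whose levels differed most between the WT cultures of separate media or that the deletion and plasmid results turn on. Each reads from 5′ to 3′ on the strand of the gene, and the capitals mark either word on either strand.
PHO84 (chrXIII:26001-26300, minus strand, R64): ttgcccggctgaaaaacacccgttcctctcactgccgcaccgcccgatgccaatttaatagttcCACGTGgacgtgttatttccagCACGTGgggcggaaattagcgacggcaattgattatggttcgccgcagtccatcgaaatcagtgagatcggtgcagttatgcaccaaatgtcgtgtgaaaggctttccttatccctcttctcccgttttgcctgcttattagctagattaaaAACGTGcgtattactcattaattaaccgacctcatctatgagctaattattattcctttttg
PHO89 (chrII:798823-799022, minus strand, R64): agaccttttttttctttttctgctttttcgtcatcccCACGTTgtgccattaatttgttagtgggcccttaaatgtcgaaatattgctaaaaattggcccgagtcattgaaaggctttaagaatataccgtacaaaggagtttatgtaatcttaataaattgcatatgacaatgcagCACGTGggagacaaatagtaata
SPL2 (chrVIII:375241-375500, minus strand, R64): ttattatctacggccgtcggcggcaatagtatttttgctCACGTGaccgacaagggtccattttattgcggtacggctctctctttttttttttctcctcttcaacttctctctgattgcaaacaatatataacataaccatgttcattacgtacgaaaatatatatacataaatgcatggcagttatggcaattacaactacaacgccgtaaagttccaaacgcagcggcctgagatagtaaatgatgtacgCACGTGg
PHO5 (chrII:431152-431351, minus strand, R64): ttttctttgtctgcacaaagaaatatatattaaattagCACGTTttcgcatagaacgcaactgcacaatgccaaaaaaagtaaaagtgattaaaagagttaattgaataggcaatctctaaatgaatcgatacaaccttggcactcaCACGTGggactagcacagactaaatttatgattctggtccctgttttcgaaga
PHO11 (chrI:225010-225209, plus strand, R64): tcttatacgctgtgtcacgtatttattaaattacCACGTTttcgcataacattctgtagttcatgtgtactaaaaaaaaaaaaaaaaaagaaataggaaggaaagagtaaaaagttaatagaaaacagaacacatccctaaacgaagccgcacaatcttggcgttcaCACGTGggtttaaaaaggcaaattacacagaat
PHO12 (chrVIII:551649-551848, plus strand, R64): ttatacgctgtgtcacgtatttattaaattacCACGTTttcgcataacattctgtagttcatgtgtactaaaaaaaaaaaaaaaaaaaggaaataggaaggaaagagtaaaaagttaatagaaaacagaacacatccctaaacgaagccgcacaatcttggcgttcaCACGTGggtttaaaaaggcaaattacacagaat
VTC3 (chrXVI:517269-517418, minus strand, R64): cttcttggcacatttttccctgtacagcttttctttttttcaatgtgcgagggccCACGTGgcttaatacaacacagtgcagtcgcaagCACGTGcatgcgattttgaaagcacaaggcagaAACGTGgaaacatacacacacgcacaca
In the stretch of *PHO84*, CACGTG starts 436 and 414 bases before the start codon. In *PHO5*, CACGTT and CACGTG start 362 and 253 bases before it. *SPL2* holds 4 copies of CACGTG, of which the nearest, at 90 and 31 bases, lie outside the printed stretch. The stretches of *PHO11* and *PHO12* are near copies of each other, as are their coding sequences, which differ at 4 of 1404 bases. Of all 51-base windows of *PHO11* and *PHO12*, the length of a read, 88.0% and 87.0% occur elsewhere in the genome, so the level of each is uncertain and their sum was also fitted. For *PHO5* the share was 11.96%, and for the other members 0%. The sequences are from RefSeq.

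Values are FPKM, fragments normalised to transcript length and to the mapped total, for each culture. The tables of the comparisons were normalised separately, so tests were run within a table. FPKM sums per library ranged from 818862 to 1610619. In the YAR table of WT and *jhd2Δ*, low values stepped by whole reads and implied 6190000 to 9760000 fragments per library, while the depth of the other tables is unknown. *JHD2* was at 0 to 0.0486 FPKM in the 8 *jhd2Δ* libraries, at 3.97 to 17.5 in the 8 WT libraries, and at 1503 to 2213 in OE against 27.6 to 35.8 in EV. WT replicate 3 in YGD stood apart, with a correlation of 0.947 to 0.951 across features to the other WT libraries and a library scale of 1.59. EV replicate 3 also stood apart, at 0.914 to 0.924.

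Markers of mating type went against the labels of the plasmid cultures. Over the 7 a-specific genes the summed level was 2307 to 6022 FPKM in EV replicates 1 and 2 and OE replicates 1 and 2, against 433.8 in EV replicate 3 and 751.2 in OE replicate 3. The 5 alpha-specific genes summed to 74.7 to 118 FPKM in the same 4 libraries, to 1572 in EV replicate 3 and to 585.3 in OE replicate 3. All 6 libraries are labelled Mat alpha. In bulk RNA, fewer cells of a type and less RNA per cell cannot be told apart. In YAD, the a-specific sum was 46.5 to 145 FPKM in WT and 15827 to 18334 in *jhd2Δ*, and the alpha-specific sum was 4298 to 5612 in WT and 31.1 to 31.9 in *jhd2Δ*. In YGD the corresponding a-specific ranges were 66.1 to 221 and 6729 to 10466. The 4 YAR libraries of WT and *jhd2Δ* had 5624 to 6304 for the a-specific and 17.7 to 35.0 for the alpha-specific genes, so mating type did not differ there.

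**Figure D1:**
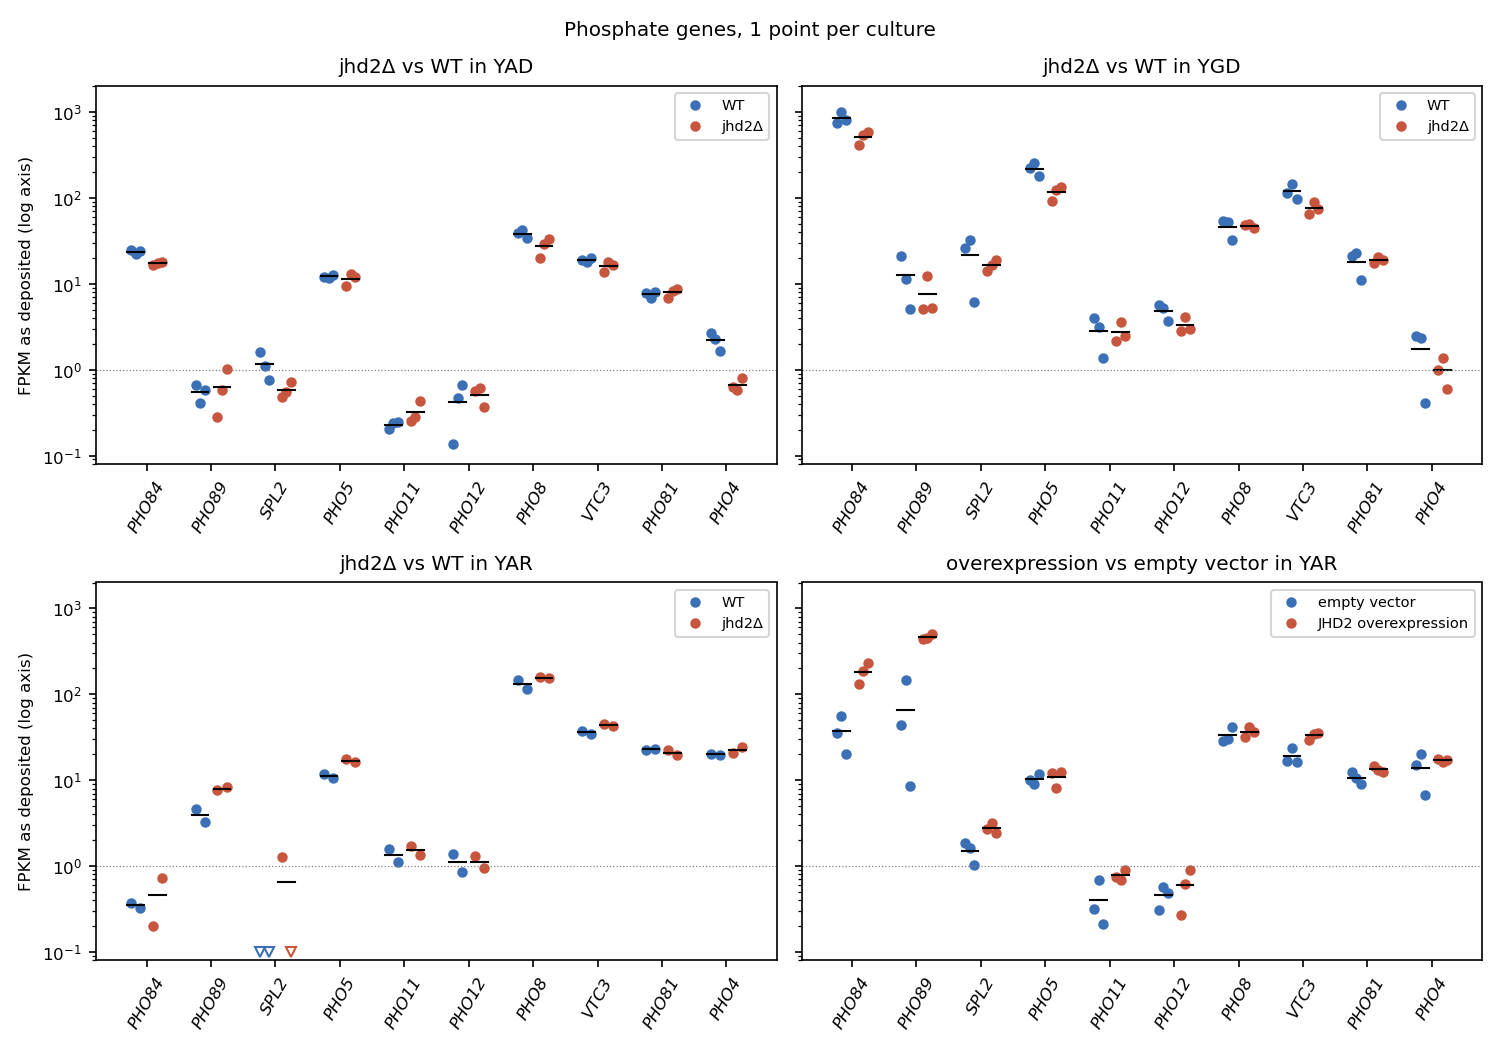
FPKM as deposited of each phosphate gene on a log axis, with 1 point per culture, a bar at the group mean, open triangles for values of 0 and a dotted line at 1 FPKM, in the separately normalised tables. *PHO84* reached 749 to 1002 FPKM in WT in YGD, and the *PHO84* and *PHO89* points of the overexpression cultures lie above those of all empty vector cultures.

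The first question was how high each gene stood in each medium, which the place of a gene among all features of its own library describes without regard to normalisation between tables. In WT in YAD, *PHO8* was the member with the highest level, at 38.2 ± 3.98 FPKM (SD, n = 3), followed by *PHO84* at 23.6 ± 1.33, *VTC3* at 18.8 ± 1.08, *PHO5* at 12.2 ± 0.589 and *PHO81* at 7.57 ± 0.695. *PHO4* was at 2.21 ± 0.507, and *SPL2*, *PHO89*, *PHO12* and *PHO11* had means of 1.15, 0.545, 0.423 and 0.228. *PHO8* lay apart from *PHO84* beyond their spread, whereas the WT values of *PHO89* and *PHO12* ran into each other.

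In WT in YGD the order was another. *PHO84* led with 852 ± 133 FPKM (SD, n = 3) and exceeded 96.3 to 97.3% of all features in its libraries, whereas in YAD it had exceeded 68.4 to 69.1%. *PHO5* followed with 219 ± 36.4 FPKM, above 92.0 to 92.9% of features compared with 50.01 to 53.05% in YAD. *VTC3* came next at 118 ± 25.7, above 87.5 to 89.7% of features compared with 62.9 to 64.9%.

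*PHO89* and *SPL2* stood in the middle of their libraries in that medium, above 40.6 to 62.0% and 45.9 to 71.8% of features in WT, compared with 10.6 to 11.6% and 11.7 to 14.3% in YAD. *PHO89* was at 21.2, 11.4 and 5.09 FPKM in the WT cultures in YGD, and *SPL2* at 26.1, 32.6 and 6.18. Set side by side across separately normalised tables, the mean level in WT in YGD was 36.0 times that in YAD for *PHO84*, 23.1 times for *PHO89*, 18.8 times for *SPL2*, 18.0 times for *PHO5*, 12.5 and 11.4 times for *PHO11* and *PHO12*, and 6.30 times for *VTC3*. These 6 genes other than *VTC3* ranked from 4 to 15 among 6198 features by that ratio, and *VTC3* ranked 26. The ranking took features with a mean of at least 1 FPKM over both media. *PHO89*, *PHO11* and *PHO12* averaged below 1 FPKM in YAD and entered it through YGD alone, which favours a high rank. *PHO11* and *PHO12* are also near copies, so their ranks are not separate. *PHO81*, the kinase inhibitor, stood at 2.39 times and *PHO8* at 1.21 times, and *PHO4* at 0.782 times, while the median log2 ratio of all features was 0.05. In *jhd2Δ* the same ratios were 29.3 for *PHO84*, 12.1 for *PHO89*, 28.1 for *SPL2*, 10.2 for *PHO5* and 4.73 for *VTC3*. These ratios carry no test, since the media were never normalised together.

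In YAR, WT cells held very little *PHO84* RNA. The WT libraries listed 0.376 and 0.328 FPKM and the *jhd2Δ* libraries 0.202 and 0.729, which correspond to 5.02, 4.99, 2.01 and 7.04 reads by the steps of the low values. *SPL2* was listed at 0 in 3 of the 4 libraries and at 1.29 FPKM, or 1.98 reads, in *jhd2Δ* replicate 1. *PHO8* was again the highest member, at 146 and 116 FPKM in WT, above 83.2 to 86.3% of features.

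*PHO4*, the transcription factor, was at 20.4 and 19.9 FPKM in WT in YAR and exceeded 40.8 to 41.3% of features there. In WT in YAD and YGD it exceeded 14.8 to 17.6% and 12.7 to 15.7%. The labelled mating type of WT also differs between those media and YAR. EV cultures in the same medium and in another table held 35.1, 55.5 and 20.3 FPKM of *PHO84*, against a mean of 0.352 in WT, and the median log2 ratio of all features between these groups was -0.85. The EV and WT cultures differed in plasmid and in their labelled mating type as well as in their table, and the part of each was not tested.

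**Figure D2:**
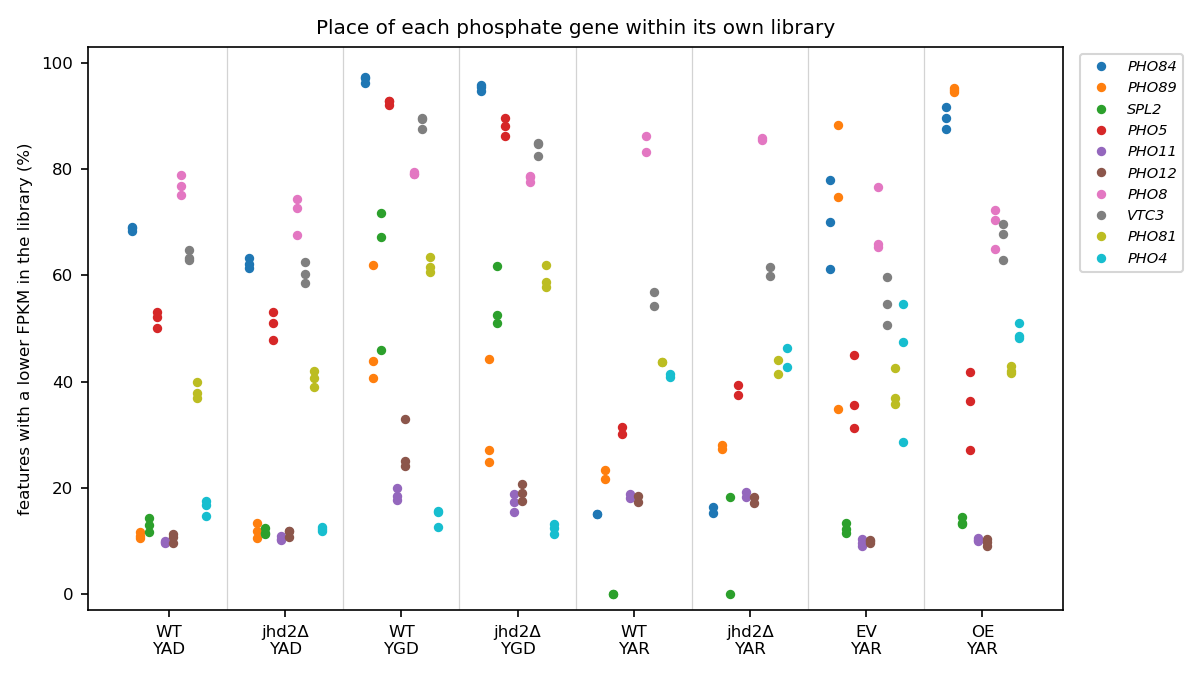
Share of all features with a lower FPKM than each phosphate gene within its own library, in percent, by group with 1 point per library (EV, empty vector; OE, overexpression). *PHO84* exceeded 96.3 to 97.3% of features in WT in YGD, while *PHO8* stayed between 65.0 and 86.3% in every group.

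The comparison of *jhd2Δ* with WT in YGD covered cells with glutamate as the nitrogen source, where the strains also differed in mating type. All 10 members passed the filter of a mean of 1 FPKM, and all 10 had a fitted fold change below 0, 7 of them under each of the 3 library scalings tried (for *PHO11*, *PHO8* and *PHO81* the sign turned with the unscaled FPKM, which moved the median of all features to 0.20). No member was called at an adjusted p under 0.05 and a fold over 1.4 by limma, where 0.338% of 6211 features were called, 0.193% higher and 0.145% lower. At an unadjusted p under 0.05 there were 4 members, all lower, beside 6.86% of all features. The median log2 fold change of the members was -0.52, and that of all features tested was 0.00 (-0.000275).

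The WT cultures held 225, 253 and 180 FPKM of *PHO5*, and the *jhd2Δ* cultures held 92.8, 125 and 133. The *jhd2Δ* cultures all lay under the WT cultures, with a log2 fold change of -1.13 (SE 0.217, limma adjusted p = 0.289). For *PHO84* the values were 749, 1002 and 806 in WT against 410, 532 and 576 in *jhd2Δ*, again without overlap. Its log2 fold change was -0.98 (SE 0.286, limma adjusted p = 0.629).

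*VTC3*, the polyphosphate synthase subunit, showed the same layout, with 113, 147 and 96.0 FPKM in WT and 64.6, 89.3 and 74.9 in *jhd2Δ* (log2 fold change -0.85, SE 0.189, limma adjusted p = 0.379). These 3 members were the ones whose groups did not overlap with *jhd2Δ* lower, as 1.38% of features did, and none lay higher without overlap, as 9.5% of features did. With the library scale used in the fits, *PHO12* and *PHO8* also lay lower without overlap, 5 members in all, as 7.37% of features did. Without WT replicate 3, which stood apart, 38 features were called and still no member, and the log2 fold changes were -0.99 for *PHO5*, -0.73 for *PHO84* and -0.70 for *VTC3*.

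The acid phosphatase *PHO12* fitted at -0.61 (SE 0.142, limma adjusted p = 0.429), with 5.62, 5.17 and 3.72 FPKM in WT and 2.85, 4.15 and 2.96 in *jhd2Δ*. Its copy *PHO11* fitted at -0.14, and the groups of both overlapped in the deposited values. The sum of *PHO11* and *PHO12* was 7.68 ± 2.33 FPKM in WT and 6.04 ± 1.45 in *jhd2Δ* (SD, n = 3). *PHO89* fitted at -0.77 (SE 0.371) and *SPL2* at -0.32 (SE 0.381), and these had the largest standard errors of the 10, while *PHO4*, *PHO8* and *PHO81* fitted at -0.43, -0.15 and -0.09. In the group values that the authors deposited, *PHO89*, *PHO5*, *PHO84* and *PHO12* stood at 0.406, 0.430, 0.469 and 0.564 times their WT level in *jhd2Δ*, and at most 1.88% of features had a lower ratio than any of these 4.

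The comparison in YAD covered cells that ferment glucose on ammonium, where most of these genes were low. Of the 10 members, 6 passed the filter. *PHO4* was called lower in *jhd2Δ*, where 5.72% of 6184 features were called, 1.68% higher and 4.04% lower. Its WT cultures held 2.68, 2.28 and 1.67 FPKM and its *jhd2Δ* cultures 0.625, 0.586 and 0.803, so the groups did not overlap, and the log2 fold change was -0.90 (SE 0.167, limma adjusted p = 0.0238).

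That call was not stable. It was lost when any culture other than WT replicate 3 was left out (adjusted p between 0.0630 and 0.0909). In the authors' group values *PHO4* ran the other way, from 3.88 in WT to 5.96 in *jhd2Δ* (log2 ratio 0.62), and in YGD from 3.73 to 5.81. The replicate mean of *PHO4* in *jhd2Δ* in YAD was 0.671 FPKM against that group value of 5.96, a log2 difference of -3.15 that 0.583% of features exceeded in the same direction, while the median of all features was -0.04. Among the 352 features called in YAD with a group value on both sides, 84 (23.9%) had the opposite sign in the group values. The direction of *PHO4* in YAD thus depends on which deposited sheet is read.

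*PHO84* was at 24.5, 22.1 and 24.3 FPKM in WT in YAD and at 16.4, 17.3 and 18.1 in *jhd2Δ*. The groups lay clear of each other and the adjusted p was 0.0221 in limma, but the log2 fold change of -0.37 (SE 0.0682) was smaller than the 1.4-fold threshold. It passed that threshold with libraries scaled to their FPKM sum, and in the authors' group values, which carry no test here, the log2 ratio was -0.66. *PHO8* was at 39.0, 41.7 and 33.8 in WT and 19.8, 28.9 and 32.8 in *jhd2Δ*, also without overlap (log2 fold change -0.45, SE 0.154, limma adjusted p = 0.113). Over all features, 20.7% lay lower in *jhd2Δ* without overlap and 8.75% higher. With scaled libraries *VTC3* also lay lower without overlap, which made 4 of the 6, beside 18.1% of features.

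The groups of *PHO5* overlapped in YAD, with 12.2 ± 0.589 FPKM in WT and 11.4 ± 1.801 in *jhd2Δ* (SD, n = 3, log2 fold change -0.04). *VTC3* fitted at -0.16 and *PHO81* at 0.11, and neither passed the test. The members left out by the filter were *PHO89*, *SPL2*, *PHO11* and *PHO12*, all at 0.135 to 1.59 FPKM in every library. *SPL2* was at 1.59, 1.11 and 0.764 in WT and 0.479, 0.546 and 0.719 in *jhd2Δ*, lower with no overlap. *PHO11* lay higher in *jhd2Δ* with no overlap, at 0.204, 0.236 and 0.243 in WT and 0.256, 0.278 and 0.428 in *jhd2Δ*. Its level is uncertain, and the sum of *PHO11* and *PHO12* overlapped, at 0.339, 0.706 and 0.906 in WT and 0.814, 0.884 and 0.792 in *jhd2Δ*. The shares without overlap given above cover only features that passed the filter, so they do not apply to these genes.

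In YAR, with raffinose as the carbon source, the comparison of *jhd2Δ* with WT rested on 2 cultures per group. The filter passed 8 members and left out *PHO84* and *SPL2*. *PHO89* was called higher in *jhd2Δ*, where 22.4% of 5846 features were called, 13.8% higher and 8.6% lower, and 2 members had an unadjusted p under 0.05, beside 35.5% of features. The sodium-coupled transporter stood at 4.63 and 3.23 FPKM in the WT cultures against 7.66 and 8.33 in the *jhd2Δ* cultures (log2 fold change 0.88, SE 0.281, limma adjusted p = 0.0349).

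The call on *PHO89* was lost when any one of the 4 cultures was left out (adjusted p 0.0523 to 0.278, log2 fold change 0.68 to 1.08). Such a fit leaves a single culture in one group, which is assumed to vary like the other group. The call was also lost when libraries were scaled to their FPKM sum, a scaling that moved the median of all features to -0.35 and *PHO89* to 0.59. *PHO5* stood at 11.8 and 10.6 FPKM in the WT cultures against 17.7 and 16.1 in the *jhd2Δ* cultures, without overlap. Its log2 fold change was 0.55 (SE 0.196, limma adjusted p = 0.0544). *PHO8*, *VTC3* and *PHO4* also lay higher in both *jhd2Δ* cultures and *PHO81* lay lower, with log2 fold changes of 0.26, 0.27, 0.15 and -0.12, none of which passed the test, and under the sum scaling *PHO8*, *VTC3* and *PHO4* turned to -0.09, -0.07 and -0.18. With 2 cultures against 2, 31.9% of all features lay higher and 32.3% lower without overlap. *PHO11* and *PHO12* overlapped between the groups.

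**Figure D3:**
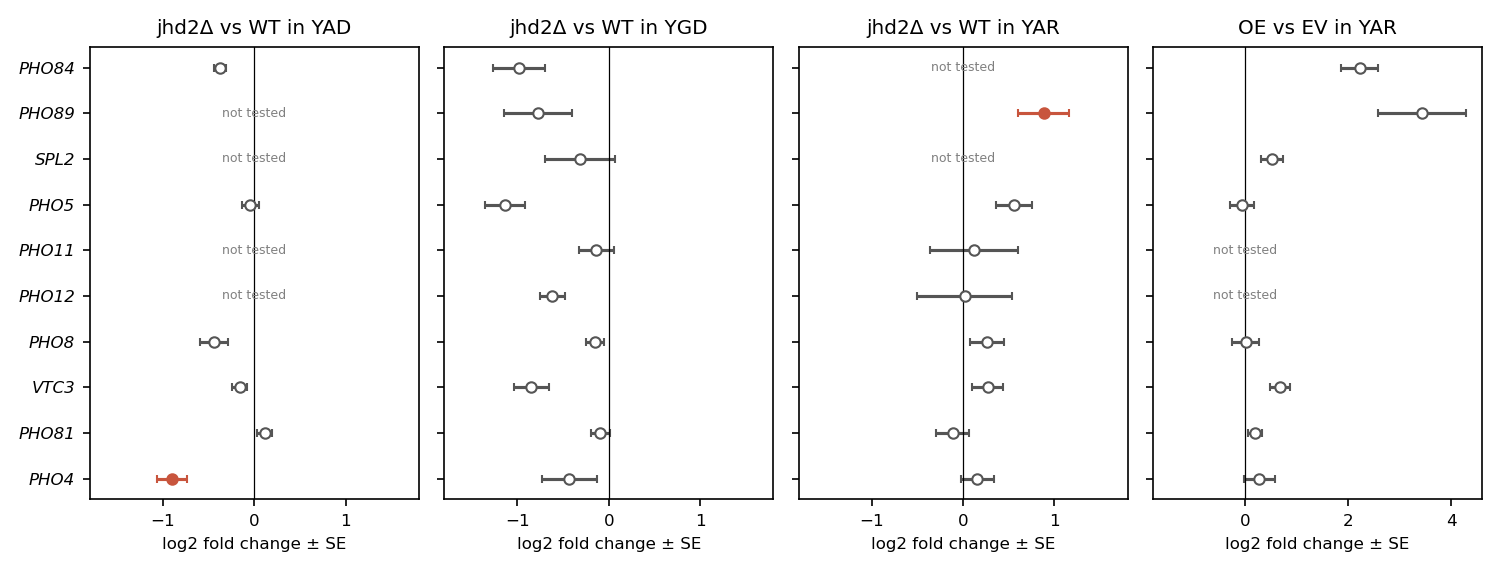
Fitted log2 fold change of each phosphate gene with its standard error in the 4 replicated comparisons (the axis of OE against EV is wider), filled where called and open where not. In YGD all 10 points lie at or under -0.09, whereas *PHO89* in YAR is at 0.88 and in the overexpression cultures at 3.43.

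Whether the effect of the deletion differed between media was tested as a contrast of the within-table effects. Between YGD and YAD no member was called in limma, where 0.0643% of 6225 features were called, and 3 members had an unadjusted p under 0.05 beside 9.54% of all features. *PHO5* had the lowest p of the members (difference -1.08, SE 0.238, limma adjusted p = 0.215). Between YAR and YAD, 7 members were tested and *PHO5* and *PHO4* were called, where 21.8% of 6233 features were called, 13.3% higher and 8.54% lower, and 5 members had an unadjusted p under 0.05, beside 36.3% of features. The effect on *PHO5* was 0.56 higher in YAR than in YAD on the log2 scale (SE 0.156, limma adjusted p = 0.0280), and the effect on *PHO4* was 1.19 higher (SE 0.244, adjusted p = 0.00862).

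Between YAR and YGD, a contrast added after the data were seen, all 10 members were tested and *PHO5* and *VTC3* were called, where 6.10% of 6243 features were called, 3.99% higher and 2.11% lower, and 5 members had an unadjusted p under 0.05, beside 24.5% of features. The effect on *PHO5* was 1.65 higher in YAR (SE 0.291, limma adjusted p = 0.0165), and that on *VTC3* was 1.10 higher (SE 0.259, adjusted p = 0.0418). Both contrasts with YAR share the YAR libraries. *PHO5* thus stood at -1.13 in YGD, -0.04 in YAD and 0.55 in YAR. The labelled mating types differ between WT and *jhd2Δ* in YAD and YGD and not in YAR, so mating type and medium cannot be told apart in the contrasts with YAR.

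These calls rested on few cultures. That on *PHO5* between YAR and YAD was lost without WT replicate 2 or 3 or *jhd2Δ* replicate 1 or 3 in YAD, and without WT replicate 2 or *jhd2Δ* replicate 1 in YAR (adjusted p 0.0520 to 0.0985). Between YAR and YGD the call on *PHO5* was lost without WT replicate 2 or either *jhd2Δ* culture in YAR (0.0516 to 0.0920), and that on *VTC3* was kept only without WT replicate 1 or 3 in YGD. *PHO4* kept its call between YAR and YAD whichever culture was left out (0.00456 to 0.0385) and lost it with libraries scaled to their FPKM sum (0.0560), with the limit of its group values given above.

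With *JHD2* overexpressed in YAR, the values of both high-affinity transporter genes lay above those of EV in every culture, but no member passed the adjusted test. *PHO84* was at 35.1, 55.5 and 20.3 FPKM in EV and at 132, 186 and 233 in OE, so the means were 37.0 ± 17.7 and 184 ± 50.1 (SD, n = 3). The groups did not overlap, and the log2 fold change was 2.22 (SE 0.363, limma adjusted p = 0.233). *PHO89* was at 43.9, 146 and 8.47 FPKM in EV and at 441, 454 and 508 in OE.

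The EV cultures thus differed widely among themselves for *PHO89*, with EV replicate 3 lowest and EV replicate 2 highest, and the OE cultures lay close together. The log2 fold change of *PHO89* was 3.43 (SE 0.855, limma adjusted p = 0.291). The place of *PHO89* among features was above 34.9 to 88.4% in EV libraries and above 94.6 to 95.3% in OE libraries.

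Of the 8 members tested in this table none was called in limma, where 0.0158% of 6331 features were called, namely *JHD2* alone, and 4 members had an unadjusted p under 0.05, all higher, beside 14.3% of features. Without EV replicate 2, 216 of 6332 features were called, 119 higher and 97 lower. *PHO84* and *PHO89* were among the higher, at log2 fold changes of 2.52 and 4.33 (limma adjusted p = 0.0279 for each). With any other single culture left out, 2 to 6 features were called and no member. EV replicate 3 and OE replicate 3, the cultures with the highest alpha-specific marker levels, were also left out together, a fit chosen after seeing the data. Then 0.0791% of 6318 features were called, 0.0633% higher, and no member, with log2 fold changes of 1.71 for *PHO84* (SE 0.303, limma adjusted p = 0.466) and 2.37 for *PHO89* (SE 0.581, adjusted p = 0.565). Among the 4 cultures with high a-specific markers, the OE values of both transporters lay above the EV values. The share of all features that did so was not counted. Between *jhd2Δ* and WT in YAR, also 2 cultures against 2, 31.9% of features lay higher without overlap.

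*VTC3* was at 16.6, 23.9 and 16.3 FPKM in EV and at 29.5, 34.7 and 35.7 in OE (log2 fold change 0.67, SE 0.187, limma adjusted p = 0.291). *SPL2* was at 1.87, 1.61 and 1.04 in EV and at 2.73, 3.15 and 2.43 in OE (0.51, SE 0.212, adjusted p = 0.349). With *PHO84* and *PHO89* these were the 4 members whose OE cultures all lay above the EV cultures, as 16.6% of features did, and none lay below them, as 7.2% of features did. *PHO5* and *PHO8* overlapped between the groups and fitted at -0.07 and 0.00 (0.000777). *PHO81* and *PHO4* fitted at 0.18 and 0.27, while *PHO11* and *PHO12* were at 0.212 to 0.910 FPKM and did not pass the filter.

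**Figure D4:**
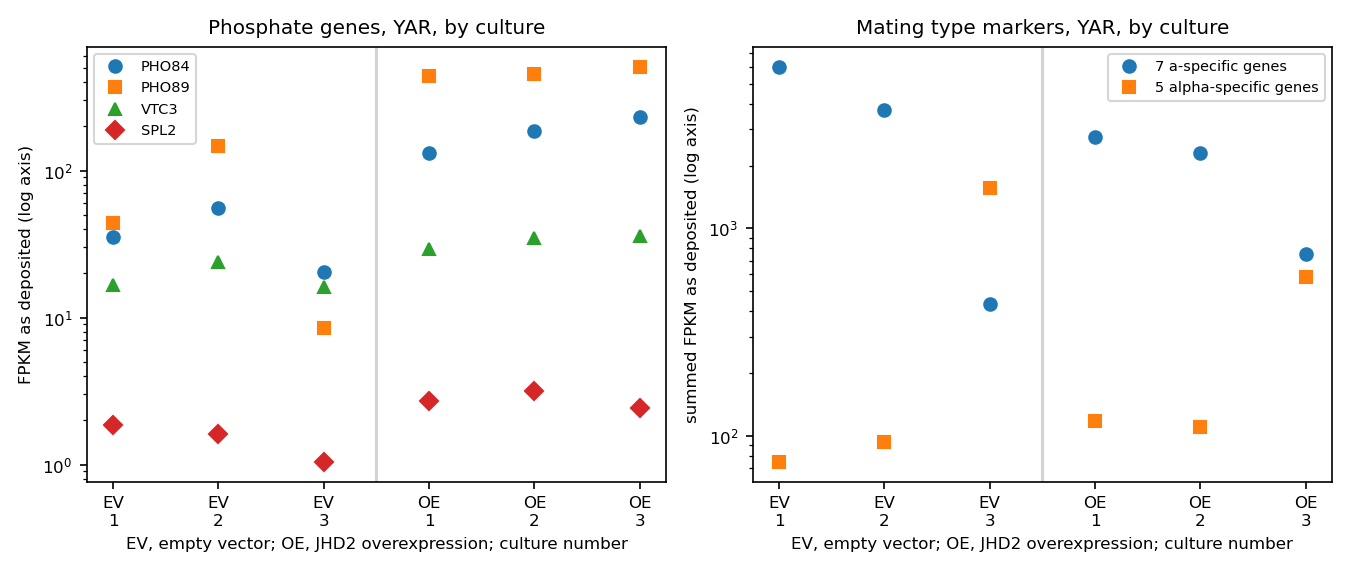
FPKM by culture on log axes in the overexpression table, with *PHO84*, *PHO89*, *VTC3* and *SPL2* on the left and the summed mating type markers on the right (EV, empty vector; OE, *JHD2* overexpression). The 3 OE cultures lie above the 3 EV cultures for all 4 genes, and the alpha-specific sum is 1572 in EV replicate 3 and 585.3 in OE replicate 3 against 74.7 to 118 in the other 4.

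In YAD, overexpression could be described from the authors' group FPKM alone, with no replicate check and no test. Of the 10 members 6 stood more than 1.4-fold higher in OE and none lower, where 1.99% of 6232 features stood higher and 6.66% lower. At over 2-fold 5 members stood higher, where 0.497% of features did and 0.915% stood lower, and with ratios centred on the median of all features 6 stood higher past 1.4-fold, where 3.06% did and 3.72% stood lower. *PHO84* went from 27.4 to 80.4 FPKM, a ratio of 2.93, and *SPL2* from 3.22 to 9.49, a ratio of 2.95. *PHO89* went from 1.23 to 2.65 and *PHO5* from 10.9 to 17.5. *PHO11* and *PHO12* had ratios of 3.95 and 3.33, from levels of 0.405 and 0.814 FPKM in EV to 1.60 and 2.71 in OE. Both thus stood below 1 FPKM in EV and passed it in OE alone, which favours a high ratio. They are also near copies whose single levels are uncertain. They are therefore not separate members in the counts of 6 and 5, which overstate the rise across the set.

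Each of these 6 ratios exceeded at least 98.8% of features. *VTC3*, *PHO81*, *PHO8* and *PHO4* had ratios of 1.28, 1.17, 0.925 and 0.749. In YAR the same kind of group value gave ratios of 3.10 for *PHO84*, 5.86 for *PHO89*, 1.45 for *SPL2* and 0.953 for *PHO5*. The EV group value of *STE2*, an a-specific gene, was 611 FPKM in YAD and that of *STE3*, an alpha-specific gene, 135 FPKM, and OE had 395 and 67.6. Their part in the ratios of the phosphate genes was not tested.

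Between the media, in EV cells, *PHO89* stood out from the other members. Its group FPKM was 1.27 in YAD and 34.6 in YAR, a ratio of 27.1 that exceeded 99.8% of 6240 features. That ratio starts from a low value and pools unlike cultures. The EV replicates in YAR held 43.9, 146 and 8.47 FPKM of *PHO89*. No other member stood higher in YAR by more than 1.4-fold and 7 stood lower, but 66.9% of all features stood lower and 7.02% higher, with a median log2 ratio of -0.77. At over 2-fold 1 member stood higher and 4 lower, where 3.06% of features stood higher and 35.1% lower. Relative to that median, where 24.1% of features lay higher and 21.6% lower by more than 1.4-fold, *PHO12*, *SPL2* and *PHO8* lay lower (-1.14, -0.74 and -0.60), and *PHO84* lay at 0.45, from 30.2 to 24.3 FPKM. In WT cells set side by side across tables, *PHO89* was at 0.545 FPKM in YAD and 3.93 in YAR, a ratio of 7.22 that exceeded 87.8% of features. It passed the filter of a mean of 1 FPKM for that share through YAR alone. *PHO84* went the other way in WT, from 23.6 to 0.352 FPKM, a ratio of 0.0149 that exceeded 1.24% of features, whereas in EV its ratio was 0.804. The mating type of WT also differs between YAD and YAR, so it cannot be told apart from the medium in the WT ratios. In EV, the alpha-specific *SAG1* and *STE3* went from 949 and 143 FPKM in YAD to 45.7 and 29.2 in YAR. The a-specific *STE2* went from 664 to 195, and the part of mating type was not tested.

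The wider phosphate system was followed through 30 further genes. In YAD 29 passed the filter, of which 1 rose and 2 fell in *jhd2Δ*, beside 1.68% and 4.04% of all features. *PHM7*, which phosphate starvation is known to induce, went from 10.1 to 17.9 FPKM (mean, n = 3, log2 fold change 0.82, limma adjusted p = 0.00648). *PPN1*, the vacuolar endopolyphosphatase, went from 21.0 to 11.2 (-0.79, adjusted p = 0.0164), and *KCS1*, an inositol hexakisphosphate kinase, from 6.67 to 3.38 (-0.75, adjusted p = 0.0188). As with *PHO4*, the authors' group values of both ran the other way, with log2 ratios of 0.20 for *PPN1* and 0.034 for *KCS1*, whereas that of *PHM7* was 0.76.

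In YGD none of 29 was called in limma, and 5 had an unadjusted p under 0.05, 4 of them lower, beside 6.86% of all features. Among these, and named after seeing their values, were the *VTC3* partners *VTC1*, *VTC2* and *VTC4*, with log2 fold changes of -0.81, -0.45 and -0.72, and the 1 with a positive value was *VTC5*, also a gene of that complex, at 0.41. In YAR 4 of 29 rose and 3 fell, near the background of 13.8% higher and 8.6% lower. *PHO88*, a membrane protein linked to phosphate uptake, went from 469 to 975 FPKM (mean, n = 2, log2 fold change 1.08, limma adjusted p = 0.00408), and the phosphatase *PHO13*, the glycerol phosphatase *HOR2* and the SPX-domain gene *SYG1* fitted at 0.72, 0.60 and 0.58. *SYG1* overlaps another annotated feature, so its reads are uncertain.

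Of the 3 that fell in YAR, the exopolyphosphatase *PPX1* fitted at -0.74, *DDP1*, which also cleaves diphosphoinositol phosphates, at -0.78 and the endopolyphosphatase *PPN2* at -0.60. In the overexpression table none of 30 was called in limma, and 7 had an unadjusted p under 0.05, 6 of them higher, beside 14.3% of all features. The regulators *PHO2*, *PHO80* and *PHO85* were called in none of the 4 comparisons. Their log2 fold changes lay between -0.47 and 0.30, the lowest being *PHO2* in YAR and the highest *PHO2* in YGD. The median over the 29 or 30 genes was 0.01 in YAD, -0.14 in YGD, -0.01 in YAR and 0.15 with overexpression, against -0.01 to 0.01 over all features tested.

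Across the 22 replicate libraries, with values centred within each table, the features most like *PHO84* were *CUZ1* (Pearson r = 0.906), *DIM1* (0.897), *MET30* (0.888), *ADH6* (0.877) and *ENA1* (0.865), out of 5680 features. *VTC3* ranked 7 with r = 0.849. The other members that could be compared were *PHO4* (0.385), *PHO81* (0.359), *PHO5* (0.281) and *PHO8* (0.0854). The libraries of a table share their scaling, and these values are a description.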

How the data were processed

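RNA from replicate yeast cultures was depleted of ribosomal RNA and sequenced as single-end stranded libraries. Per the labels and the study's methods, the authors aligned reads with TopHat2 2.0.12 and Bowtie2 2.1.0 after FastQC 0.10.1, and deposited FPKM per culture from Cufflinks 2.1.1 and group FPKM from Cuffdiff 2.1.1. The methods name the yeast genome build by a version number that was not matched to a release here and take transcripts from SGD, and 99.8% of nuclear features matched RefSeq R64 coordinates. No strand setting for counting was stated. The authors' columns of fold changes, p-values and q-values were not used. Also not used were 6 replicate columns of the overexpression sheet named for YAD, which equalled the YAR sheet in 7041 of 7041 features. The mean of replicates was set against the authors' group value for the WT or EV group, over features with a mean over 1 FPKM. It matched within 0.1% for every such feature in the YAR table of WT and *jhd2Δ*. In the other tables at most 0.452% of such features matched.

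FPKM values were scaled per library by the median of ratios to the table's geometric mean, kept where the mean was at least 1 and tested as log2(FPKM + 1) with limma 3.58.1 (trend, robust) in R 4.3.3, with Benjamini-Hochberg adjustment over all features. Fold changes are on that scale, which understates the change of low genes. A feature was called at an adjusted p under 0.05 and a fold over 1.4. Samples were grouped by the labels, and replicate numbers come from the column names. The code was tested on simulated data. All 10 members were described. Of 30 other phosphate genes, those called in any replicated comparison and the regulators *PHO2*, *PHO80* and *PHO85* were named, and features like *PHO84* were the 5 with the highest correlation. The members and lists were chosen with earlier results of these data known. Alternatives were other pseudocounts (0.1 and 5), filters, scalings, a replicate block, summed copies, the authors' group values and each culture left out. Depth is unknown outside the YAR table of WT and *jhd2Δ*.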

Additional observations from a re-analysis of the deposited data

Results flagged for a closer look

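For 3 members the difference between media in the effect of the *jhd2Δ* deletion was called by the limma contrast of the within-table effects. Between YAR and YAD 2 of 7 members were called, beside 21.8% of all features, 13.3% higher and 8.54% lower. Between YAR and YGD 2 of 10 members were called, beside 6.10% of all features, 3.99% higher and 2.11% lower. The effect on *PHO5* was 0.56 higher in YAR than in YAD on the log2 scale and 1.65 higher in YAR than in YGD. The effect on *PHO4* was 1.19 higher in YAR than in YAD, a call that was lost with libraries scaled to their FPKM sum (adjusted p = 0.0560), and the authors' group values ran the other way, with log2 ratios of 0.62 in YAD and 0.17 in YAR. The effect on *VTC3* was 1.10 higher in YAR than in YGD. Among other losses, the call on *PHO5* between YAR and YAD was lost without WT replicate 2 in YAD. That on *VTC3* was lost without WT replicate 2 in YGD. The contrasts with YGD were chosen after seeing the data, all 4 use the same YAR libraries, and the labelled mating type differs between the genotypes in YAD and YGD but not in YAR, so it cannot be told apart from the medium.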

How the results depend on the processing

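The count of members called in YGD, and that in YGD against YAD, stayed at 0 under all alternatives tried. In YAD the 1 call became 0 with a pseudocount of 5 and with the replicate block and 2 with libraries scaled to their FPKM sum, and it ranged from 0 to 1 with a culture left out. In YAR the 1 call became 0 with the sum scaling, without trend and robust fitting, with the replicate block and with any culture left out (0 to 0). With overexpression in YAR the count of 0 ranged from 0 to 2 with a culture left out. For YAR against YAD the 2 calls became 1 with a pseudocount of 5 and 0 with the sum scaling, and ranged from 1 to 2 with a culture left out. For YAR against YGD the 2 calls became 1 with unscaled FPKM, the sum scaling or the replicate block, and ranged from 0 to 3. For EV in YAR against YAD, the 8 members past 1.4-fold became 5 at a fold over 2 and 4 when centred on the median.

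Signs turned for values that did not pass the test, apart from *PHO4* in YAD, which was 0.62 in the authors' group values. In those group values *PHO4* was also 0.64 in YGD and *PHO81* was -0.080 in YAD. With overexpression in YAR, *PHO81*, *PHO4* and *PHO8* were -0.28, -0.29 and -0.092 there. With the sum scaling, *PHO81* was -0.0066 in YAD and 0.053 in YGD, *PHO11*, *PHO12*, *PHO8*, *VTC3* and *PHO4* were -0.087, -0.16, -0.089, -0.074 and -0.18 in YAR, and *PHO5* was 0.19 with overexpression. With unscaled FPKM, *PHO11*, *PHO8* and *PHO81* were 0.0064, 0.070 and 0.12 in YGD and *PHO5* was 0.051 with overexpression. *PHO8* was -0.00176 with overexpression at a pseudocount of 5, and *PHO4* was -0.11 there without EV and OE replicates 3. With a culture left out, *PHO5* ranged from -0.10 to 0.026 in YAD, *PHO11* from -0.023 to 0.25 and *PHO12* from -0.16 to 0.19 in YAR, and *PHO8* from -0.13 to 0.24, *PHO5* from -0.21 to 0.11 and *PHO4* from -0.07 to 0.53 with overexpression. The cause was not tested.

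Over all features, calls in YAD were 354 and 147 to 373 with a culture left out, in YGD 21 and 12 to 38, in YAR 1308 and 42 to 1166, and with overexpression 1 and 2 to 216. In YAR the sum scaling gave 362 higher and 1745 lower in place of 805 and 503, and in YAD 38 and 419 in place of 104 and 250. With the replicate block 180 features were called in YAD, 13 in YGD, 174 in YAR and 1 with overexpression. Same-numbered cultures correlated at -0.108 to 0.174, so the numbers were not taken to pair them.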
